A study of Mus musculus with 6 samples.

Results

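The 9 Polycomb genes described here encode subunits of both Polycomb repressive complexes. They were taken by gene symbol from a table of 54532 genes, and each symbol matched 1 row. Ezh1, Ezh2, Eed and Suz12 belong to Polycomb repressive complex 2 (PRC2). Bmi1, Cbx2, Cbx6, Cbx7 and Cbx8 belong to Polycomb repressive complex 1 (PRC1). RNA sequencing was done on 6 mouse libraries whose labels name lung tissue, 3 labelled young, from mice aged 3 months, and 3 labelled aged, from mice aged 18 months. The sources used here give no strain, sex, genotype or treatment. They do not say whether each library came from its own mouse, so the spread that the p-values measure is that of the libraries and may be technical. Values are FPKM, fragments per kilobase of gene length scaled to the size of the library. That length spans all annotated exons of a gene, so levels set side by side between genes depend on it.

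Polycomb proteins keep genes silent through cell divisions. PRC2 methylates histone H3 on the lysine called H3K27, with EZH1 or EZH2 as the catalytic subunit and with EED and SUZ12, without which the enzyme is not active. Canonical PRC1 carries a CBX protein whose chromodomain can bind that methyl mark, a PCGF protein such as BMI1, and a RING protein that attaches ubiquitin to histone H2A. EZH2 is typical of dividing cells and EZH1 of resting cells, and BMI1 and CBX7 are textbook repressors of Cdkn2a, the locus that encodes p16.

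The contents of the libraries go against the lung label, and groups are named here by their labels only, as labelled young and labelled aged. Of 17 lung markers, 13 stayed under 0.5 FPKM in every library, among them Sftpc, the surfactant gene of alveolar type 2 cells. Of the others, Hopx stood between 5.68 and 10.4 FPKM and Rtkn2 between 0.713 and 1.56 FPKM. Ager and Scgb1a1 reached at most 0.679 and 0.855 FPKM. Of 10 mesenchymal markers, 7 reached at least 10 FPKM in each library and 3 stayed under 0.5 FPKM in every library. Of the cell division genes, 20 of 20 reached at least 10 FPKM in each library. Recovered reads summed to between 16649061 and 17456715 per library. Transcripts of kidney were present in 2 libraries labelled young. Kap, an abundant kidney transcript, stood at 116 FPKM in replicate 1 and 21.9 FPKM in replicate 3 and was listed at 0 in the other 4 libraries, and the 12 kidney markers summed to between 0.887 and 134 FPKM in the libraries labelled young and between 1.33 and 2.03 FPKM in those labelled aged. Blood markers summed to between 4.72 and 5.64 FPKM against 19.6 to 20.8 FPKM, most of it from Lyz2, and 7 of these 10 markers stayed under 0.5 FPKM in every library. The part of blood transcripts in the results was not tested, and that of kidney transcripts was examined by leaving out those 2 libraries.

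All 9 Polycomb genes passed the filter on low values and differed between the groups, 6 lower and 3 higher in the libraries labelled aged (limma, adjusted p under 0.05). Their own libraries did not overlap between the groups for any of the 9. These counts stand beside a wide background. Of 15197 tested genes, 60.0% were called in either direction, 32.3% lower and 27.7% higher, and the groups did not overlap for 66.9%, with the libraries labelled aged below for 35.6% and above for 31.3%. In bulk RNA, fewer cells of a type and less RNA per cell cannot be told apart. The median log2 fold change of the 9 genes was -0.54, against -0.03 over all tested genes. The 9 genes together summed to 169.6 ± 0.369 FPKM in the libraries labelled young and 142 ± 4.58 FPKM in those labelled aged (mean ± SD, n = 3 per group here and below). Between 331 and 6074 reads stood behind each value of a Polycomb gene in a library, so counting error is small beside the differences given.

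**Figure D1:**
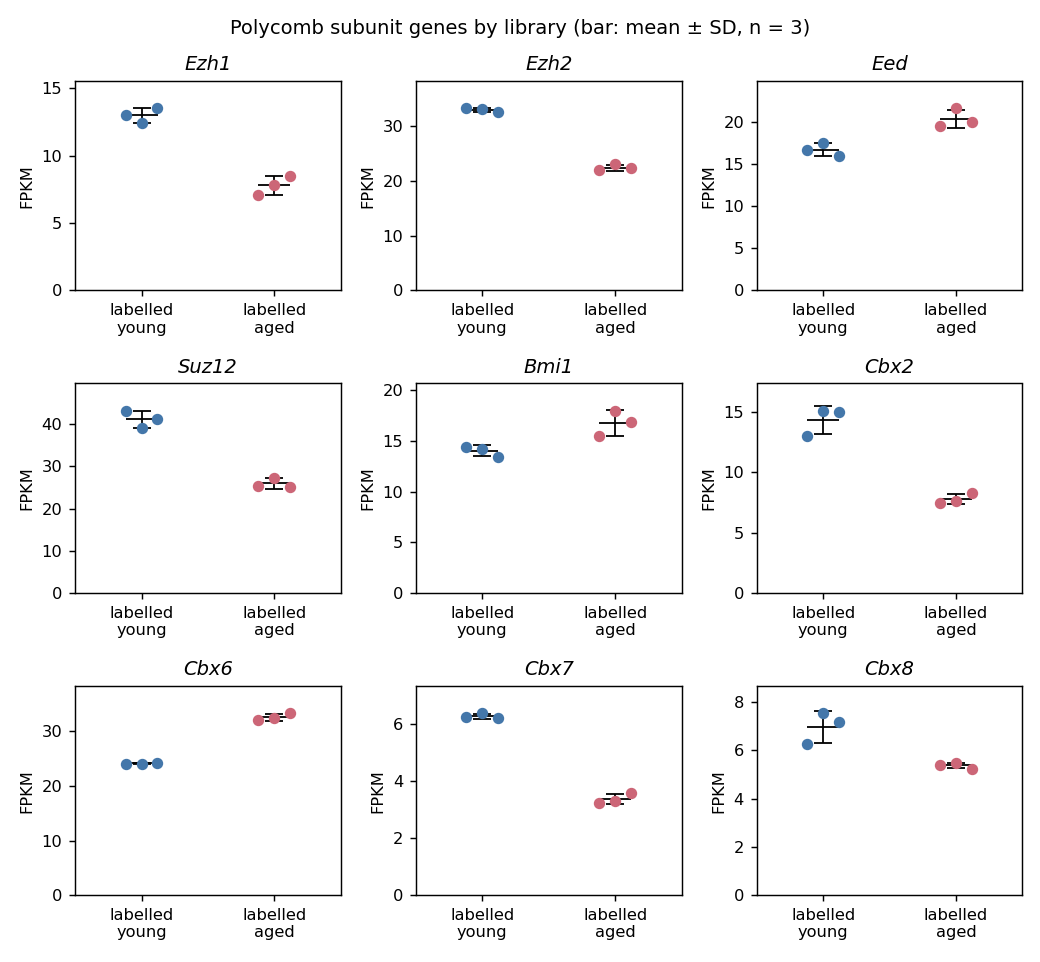
FPKM of each of the 9 Polycomb genes (vertical axis, starting at 0) in the 3 libraries labelled young (blue) and the 3 labelled aged (red), with the mean and SD as a bar. Ezh1, Ezh2, Suz12, Cbx2, Cbx7 and Cbx8 sit lower and Eed, Bmi1 and Cbx6 higher in every library labelled aged than in any labelled young.

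Ezh2, the main catalytic subunit of PRC2 in dividing cells (ENSMUSG00000029687, mm10 chromosome 6, 47530139 to 47595341, minus strand), measured 33.2, 33.0 and 32.6 FPKM in the libraries labelled young. In those labelled aged it measured 21.9, 23.0 and 22.3 FPKM. The 3 libraries labelled aged lie close together, all under the lowest library labelled young. Ezh2 fell 1.47-fold, from 32.9 ± 0.336 to 22.4 ± 0.568 FPKM (limma adjusted p = 2.29e-05, with -0.54 ± 0.03 SE as the log2 fold change). A lincRNA on the opposite strand, Gm26625, shares 174 bases, or 2.61%, of the exonic bases of Ezh2, and it reached at most 0.186 FPKM.

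Ezh1, the alternative catalytic subunit (ENSMUSG00000006920, chromosome 11, 101191115 to 101226463, minus strand), stood at 13.1, 12.4 and 13.5 FPKM in the libraries labelled young and at 7.09, 7.85 and 8.47 FPKM in those labelled aged. The groups are well apart, although the libraries labelled aged spread over a wider range for their level than those of Ezh2. Ezh1 fell 1.66-fold, from 13.0 ± 0.553 to 7.80 ± 0.692 FPKM (limma adjusted p = 0.000175, with -0.67 ± 0.07 SE as the log2 fold change).

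The balance of the 2 catalytic subunits overlapped between the groups. Ezh2 made up 71.8%, 72.7% and 70.7% of the summed FPKM of Ezh1 and Ezh2 in the libraries labelled young and 75.5%, 74.6% and 72.5% in those labelled aged. The lowest share of the labelled aged group lies inside the range of the other group. The means were 71.7% ± 1.01 and 74.2% ± 1.55, a difference of 2.47 percentage points. An exact 2-sided permutation test gave p = 0.20. The smallest p that 3 against 3 libraries allow is 0.10, so this design could not pass the threshold and does not decide whether the balance differed. The sum of the 2 genes was 1.52-fold lower, at 30.2 ± 1.07 against 45.9 ± 0.433 FPKM.

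Suz12, the scaffold subunit that holds PRC2 together (ENSMUSG00000017548, chromosome 11, 79993106 to 80034123, plus strand), was the most abundant of the 9 genes in the libraries labelled young, at 43.1, 39.2 and 41.2 FPKM. It measured 25.4, 27.3 and 25.1 FPKM in the libraries labelled aged, again with no overlap. Suz12 fell 1.59-fold, from 41.2 ± 1.99 to 25.9 ± 1.21 FPKM (limma adjusted p = 6.12e-05, with -0.65 ± 0.05 SE as the log2 fold change).

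Eed, the subunit that binds trimethylated H3K27 and stimulates the enzyme (ENSMUSG00000030619, chromosome 7, 89954654 to 89980983, minus strand), went the other way. Its values were 16.6, 17.5 and 16.0 FPKM in the libraries labelled young and 19.5, 21.6 and 19.9 FPKM in those labelled aged. The gap between the groups is narrow, from 17.5 to 19.5 FPKM. Eed rose 1.22-fold, from 16.7 ± 0.776 to 20.3 ± 1.10 FPKM (limma adjusted p = 0.00388, with 0.27 ± 0.05 SE as the log2 fold change), and this call was lost when the 2 libraries with kidney transcripts were left out (log2 fold change 0.20, limma adjusted p = 0.0833, with 1 library labelled young assumed to vary like the others). The ratio of Suz12 to Eed FPKM was 2.59, 2.24 and 2.58 in the libraries labelled young and 1.30, 1.27 and 1.26 in those labelled aged. The ratio of Ezh1 plus Ezh2 to Eed was 2.76 ± 0.148 in the first group and 1.49 ± 0.0574 in the second.

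The promoters of Ezh2, Suz12 and Eed are printed here because these subunits of 1 complex went in different directions. The sequences are RefSeq's, build GRCm38.p6 (the assembly called mm10), on the strand of the gene and 5′ to 3′. The 3 upstream stretches hold no bases of annotated exons of their own gene, and exons of other genes were not checked. The short Ezh2 stretch spans the start, and its match lies after the start. The Ezh2 upstream stretch lies before the RefSeq start but inside the annotated bounds of the gene given above. Capitals mark matches to TTTNNCGC, a core of sites for E2F factors, and to CCAAT, the box bound by NF-Y, both searched on either strand. A further CCAAT match of Ezh2, at position -11 from the start, is not printed in full and not marked. The first line is 30 bases around the E2F-type match at the Ezh2 start (chr6:47595009-47595038, minus strand), the second is upstream of it (chr6:47595059-47595183, minus strand), the third is upstream of Suz12 (chr11:79992856-79993105, plus strand) and the fourth upstream of Eed (chr7:89980984-89981226, minus strand).
Ezh2 start: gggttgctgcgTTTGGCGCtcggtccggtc
Ezh2 upstream: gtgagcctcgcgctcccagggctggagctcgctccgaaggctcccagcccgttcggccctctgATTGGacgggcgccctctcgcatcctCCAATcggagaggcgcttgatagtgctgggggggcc
Suz12 upstream: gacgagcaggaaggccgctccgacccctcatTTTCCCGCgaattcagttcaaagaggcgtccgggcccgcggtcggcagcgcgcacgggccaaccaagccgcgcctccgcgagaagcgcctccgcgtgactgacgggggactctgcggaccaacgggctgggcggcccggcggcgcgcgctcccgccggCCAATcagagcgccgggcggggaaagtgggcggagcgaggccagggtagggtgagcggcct
Eed upstream: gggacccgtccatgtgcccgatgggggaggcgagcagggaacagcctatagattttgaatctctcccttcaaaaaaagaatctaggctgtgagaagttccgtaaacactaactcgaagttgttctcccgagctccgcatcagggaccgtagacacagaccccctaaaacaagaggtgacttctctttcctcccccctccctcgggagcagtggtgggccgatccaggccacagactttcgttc

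RefSeq promoter windows, from 250 bases before to 50 after the start, were found for 8 of the 9 genes, Cbx2 being the one not in the table. TTTNNCGC occurred in the windows of Ezh2 and Suz12 and in no other of these 8, and in 5.27% of the windows of 27025 genes. CCAAT occurred in 5 of the 8, namely Ezh2, Suz12, Eed, Cbx7 and Cbx8, and in 37.9% of all windows. In Eed its only match lies after the start and is not in the stretch printed. TTTGAA, the core of the cell cycle element called CHR, occurred in 3 of the 8, namely Eed, Suz12 and Cbx7, and in 18.1% of all windows. A match is a description of letters and was not tested against the expression values.

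Among the PRC1 genes, the 4 CBX members parted. CBX proteins are alternative chromodomain subunits of canonical PRC1, of which 1 is held by each complex. Cbx2 (ENSMUSG00000025577, chromosome 11, 119022962 to 119031270, plus strand), a CBX protein known for compacting chromatin, measured 13.0, 15.1 and 15.0 FPKM in the libraries labelled young and 7.45, 7.65 and 8.27 FPKM in those labelled aged. Its values in the 2 groups are far apart. Cbx2 fell 1.85-fold, from 14.4 ± 1.17 to 7.79 ± 0.430 FPKM (limma adjusted p = 8.97e-05, with -0.81 ± 0.07 SE as the log2 fold change).

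Cbx7 (ENSMUSG00000053411, chromosome 15, 79915807 to 79971119, minus strand), a repressor of the Cdkn2a locus that can prolong cell proliferation, had the lowest mean level of the 9 in both groups. It stood at 6.24, 6.38 and 6.21 FPKM in the libraries labelled young and at 3.25, 3.30 and 3.58 FPKM in those labelled aged. Within each group the libraries hardly differ. Cbx7 fell 1.86-fold, from 6.28 ± 0.0941 to 3.37 ± 0.179 FPKM (limma adjusted p = 3.73e-05, with -0.73 ± 0.05 SE as the log2 fold change). Apobec3, on the opposite strand, shares 100 bases, or 1.54%, of the exonic bases of Cbx7 and stood between 3.62 and 5.02 FPKM, and since the use of strand is not given, reads in those bases cannot be told apart.

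Cbx8 (ENSMUSG00000025578, chromosome 11, 119036305 to 119040969, minus strand), a CBX subunit that has also been linked to repression of Cdkn2a, showed the smallest of the 6 decreases. Its values were 6.24, 7.52 and 7.16 FPKM in the libraries labelled young and 5.40, 5.47 and 5.24 FPKM in those labelled aged. Replicate 1 of the libraries labelled young lies nearest to the other group. Cbx8 fell 1.30-fold, from 6.97 ± 0.660 to 5.37 ± 0.117 FPKM (limma adjusted p = 0.00554, with -0.32 ± 0.07 SE as the log2 fold change).

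Cbx6 (ENSMUSG00000089715, chromosome 15, 79823896 to 79834688, minus strand), a less studied CBX subunit, rose. It measured 24.1, 24.1 and 24.3 FPKM in the libraries labelled young and 32.1, 32.4 and 33.3 FPKM in those labelled aged, where it was the most abundant of the 9 genes. The spread within a group is far smaller than the gap. Cbx6 rose 1.35-fold, from 24.2 ± 0.133 to 32.6 ± 0.624 FPKM (limma adjusted p = 4.50e-05, with 0.42 ± 0.03 SE as the log2 fold change). Npcd, annotated on the same strand, shares 563 bases, or 5.31%, of the exonic bases of Cbx6 and reached at most 0.0797 FPKM.

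The 4 CBX members lie in pairs. Cbx2 and Cbx8 are 5.03 kb apart on chromosome 11, and both were lower. Cbx6 and Cbx7 lie 81.1 kb apart on chromosome 15 and went in opposite directions. The ratio of Cbx6 to Cbx7 FPKM was 3.86, 3.78 and 3.92 in the libraries labelled young and 9.90, 9.82 and 9.31 in those labelled aged.

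Cbx2, Cbx6, Cbx7 and Cbx8 together summed to 51.8 ± 1.93 FPKM in the libraries labelled young and 49.1 ± 1.13 FPKM in those labelled aged, and the shares within that sum were compared as well. Cbx6 made up 48.5%, 45.4% and 46.2% of it in the libraries labelled young and 66.6%, 66.4% and 66.1% in those labelled aged, so the groups stood 19.7 percentage points apart. Cbx2 took 27.7% ± 1.26 in the first group and 15.8% ± 0.505 in the second. The share of Cbx7 was 12.1% ± 0.413 against 6.86% ± 0.205, and that of Cbx8 was 13.4% ± 0.794 against 10.9% ± 0.464. The groups did not overlap for any of the 4 shares. Each gave p = 0.10 in an exact 2-sided permutation test, the smallest that 3 against 3 libraries allow, and 0.10 after adjustment over the 4 shares, so this design could not pass the threshold. The shares of 1 library sum to 100%, so they are not independent of one another.

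Bmi1, a PCGF subunit of canonical PRC1 and a known repressor of Cdkn2a (ENSMUSG00000026739, chromosome 2, 18677018 to 18686629, plus strand), measured 14.4, 14.2 and 13.4 FPKM in the libraries labelled young. In those labelled aged it measured 15.4, 18.0 and 16.9 FPKM. The distance between the groups, from 14.4 to 15.4 FPKM, is smaller than the range within the libraries labelled aged. Bmi1 rose 1.20-fold, from 14.0 ± 0.538 to 16.8 ± 1.27 FPKM (limma adjusted p = 0.0113, with 0.24 ± 0.06 SE as the log2 fold change). Without the 2 libraries with kidney transcripts the adjusted p of limma was 0.120, at a log2 fold change of 0.22 against the 1 remaining library labelled young.

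BMI1 shares its place in PRC1 with 5 other PCGF proteins, which define different forms of the complex. All 5 of their genes were called lower in the libraries labelled aged on the values as deposited, but 2 of these calls were lost with median centring. Pcgf2 (MEL18), the closest relative of Bmi1, fell 1.46-fold, from 12.1 ± 0.256 to 8.30 ± 0.240 FPKM (limma adjusted p = 6.74e-05), and Pcgf1, of the variant PRC1 that contains KDM2B and BCOR, fell 1.56-fold, from 4.86 ± 0.262 to 3.12 ± 0.583 FPKM (limma adjusted p = 0.00551, log2 fold change -0.52). Without the 2 libraries with kidney transcripts the log2 fold change of Pcgf1 was -0.45, with an adjusted p of 0.102 from fewer libraries. Of the other 3, named to complete the list, Pcgf5 gave a limma adjusted p of 0.00491, and Pcgf3 and Pcgf6 gave 0.0386 and 0.0440. With median centring the adjusted p was 0.169 for Pcgf3 and 0.188 for Pcgf6. The call of Pcgf3 was also lost without any 1 library but replicate 3 of those labelled aged. That of Pcgf6 was lost without replicate 1 or 3 of the libraries labelled aged or 2 or 3 of those labelled young. Among other settings, both calls were also lost with quantile normalization (limma adjusted p = 0.147 for Pcgf3 and 0.115 for Pcgf6). Rescaling to TPM lost both as well (limma adjusted p = 0.101 and 0.0661). Bmi1 made up 24.7%, 25.0% and 23.5% of the FPKM of the 6 genes in the libraries labelled young and 31.3%, 34.2% and 33.3% in those labelled aged. The shares of Bmi1 do not overlap between the groups, and the exact 2-sided permutation test gave p = 0.10, again the smallest possible here.

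**Figure D2:**
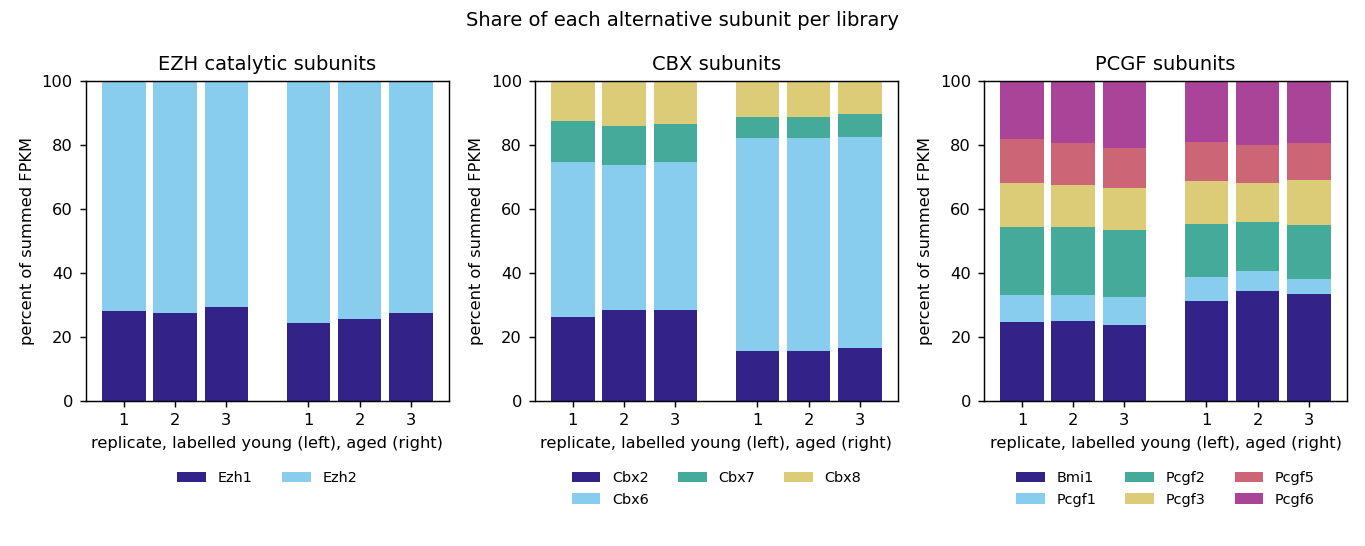
Share of each alternative subunit gene in the summed FPKM of its family (percent, stacked to 100), for the EZH genes, the 4 CBX members and the PCGF genes, with 1 bar per library and the 3 libraries labelled young on the left of each panel. The Ezh2 share differs by 2.47 percentage points between the groups, the Cbx6 share by 19.7 and the Bmi1 share by 8.50.

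Subunits and partners of the Polycomb complexes outside the 9 were taken from lists, 48 genes in all, of which 42 passed the filter. Of these, 25 were lower, 4 higher and 13 did not pass the threshold, with a median log2 fold change of -0.18. These counts, and those of the other lists, stand beside 32.3% lower and 27.7% higher over all 15197 tested genes. The median log2 fold change over all tested genes was -0.03. The count of lower genes among the 42 depends on the setting. It was 16 with median centring, 16 without replicate 2 of the libraries labelled aged and 13 without the 2 libraries with kidney transcripts.

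The remaining core subunits of PRC2 are histone-binding proteins. Rbbp7, a subunit shared with other chromatin complexes, fell 1.14-fold, from 120.0 ± 0.924 to 105 ± 0.932 FPKM, and its relative Rbbp4 stood at 30.9 ± 0.134 against 29.5 ± 0.674 FPKM (limma adjusted p = 0.0939). Of 8 accessory genes of PRC2, 7 were tested, of which 1 rose, 4 fell and 2 stayed short of the threshold. Phf1, a Polycomb-like protein that helps PRC2 find chromatin, fell 1.42-fold, from 16.0 ± 0.589 to 11.3 ± 0.895 FPKM, and Lcorl, whose product PALI2 joins PRC2, fell 1.43-fold, from 3.30 ± 0.0683 to 2.31 ± 0.239 FPKM (limma adjusted p = 0.00300, log2 fold change -0.38). Without the 2 libraries with kidney transcripts the log2 fold change of Lcorl was again -0.38, with an adjusted p of 0.0555 from fewer libraries. Lcor, a relative of Lcorl, was the fourth called lower (limma adjusted p = 0.0210), and its call was lost without any 1 library but replicate 3 of those labelled aged. Among other settings, that call was also lost with median centring (limma adjusted p = 0.0636). The Polycomb-like gene Phf19 was the 1 accessory gene called higher, and it is named here after its values were seen, at 9.28 ± 0.274 against 7.39 ± 0.0605 FPKM. Jarid2, which recruits PRC2, was low, at 0.854 ± 0.116 against 0.493 ± 0.0705 FPKM. It was called lower with limma adjusted p = 0.0253. Among other alternatives, that call was lost when replicate 1 or 3 of the libraries labelled young, both of these, or replicate 1 or 2 of those labelled aged were left out, and over all alternatives the adjusted p of Jarid2 ran from 0.000351 to 0.272.

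The RING genes encode the catalytic subunits of PRC1, and 1 of the 2 was called. Ring1 fell 1.34-fold, from 9.44 ± 1.01 to 7.05 ± 0.586 FPKM (limma adjusted p = 0.00837). Rnf2 (RING1B) stood at 15.1, 14.2 and 14.8 FPKM in the libraries labelled young and 14.3, 12.6 and 13.0 FPKM in those labelled aged, where replicate 1 lies within the range of the other group (limma adjusted p = 0.0617). Of the alternatives run, Rnf2 was called lower only without that replicate (adjusted p = 0.0166).

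In the list of other canonical PRC1 genes and MBT domain genes, 5 of 8 were tested, of which 1 rose, 3 fell and 1 stayed short of the threshold. Sfmbt2, an MBT domain protein of Polycomb repression, fell 1.64-fold, from 5.03 ± 0.190 to 3.06 ± 0.119 FPKM. The polyhomeotic gene Phc1 fell 1.46-fold, from 8.28 ± 0.438 to 5.68 ± 0.342 FPKM, whereas its relative Phc2, the 1 gene of the list called higher and chosen after its values were seen, stood at 20.1 ± 0.966 against 14.3 ± 0.145 FPKM. Phc3 was the other gene called lower (limma adjusted p = 0.0166), and its call was lost without replicate 1 of either group or replicate 2 of the libraries labelled aged. That call was also lost with median centring and with quantile normalization (limma adjusted p = 0.0704 and 0.0721).

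Among 11 tested genes of variant PRC1, 2 rose, 5 fell and 4 stayed short of the threshold. L3mbtl2, of the PRC1.6 form, rose 1.87-fold, from 5.74 ± 0.0961 to 10.7 ± 0.104 FPKM (limma adjusted p = 9.43e-06, with 0.80 ± 0.04 SE as the log2 fold change), a larger fold than that of Cbx6, with the difference between the 2 genes not tested. Dcaf7, a scaffold protein found with PCGF3 and PCGF5, fell 1.31-fold, from 27.9 ± 0.432 to 21.3 ± 1.06 FPKM. Outside the rule for named genes, and named after their values were seen, Yaf2 was also higher, at 25.5 ± 0.568 against 19.7 ± 0.447 FPKM, and Kdm2b, Fbrsl1, Rybp and Fbrs were also lower. With 1 library left out at a time, Fbrsl1 lost its call without replicate 2 of either group. Rybp then lost its call without replicate 2 of the libraries labelled young. Fbrs then lost its call without replicate 1 of either group, 2 labelled aged or 3 labelled young. Among other settings, Fbrs also lost its call with median centring and with quantile normalization (limma adjusted p = 0.109 and 0.0701). Of 10 tested genes of the Polycomb deubiquitinase complex PR-DUB and its partners, 0 rose, 6 fell and 4 stayed short of the threshold. Ogt, the enzyme that adds N-acetylglucosamine to nuclear proteins, fell 1.49-fold, from 65.1 ± 1.66 to 43.6 ± 3.11 FPKM, and Mbd6 fell 1.36-fold, from 16.5 ± 0.667 to 12.1 ± 0.251 FPKM.

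Of 15 tested genes that oppose Polycomb, 1 rose, 10 fell and 4 stayed short of the threshold. The demethylases of H3K27 undo the mark of PRC2, and both were called lower. Kdm6b (JMJD3) measured 10.2, 10.2 and 10.3 FPKM in the libraries labelled young and 4.13, 4.10 and 4.69 FPKM in those labelled aged, a 2.38-fold decrease (limma adjusted p = 1.21e-05, with -1.08 ± 0.05 SE as the log2 fold change). Cbx7 fell 1.86-fold, and the difference between the folds of Kdm6b and Cbx7 was not tested. Kdm6a (UTX) fell 1.24-fold, from 3.86 ± 0.269 to 3.11 ± 0.0280 FPKM (limma adjusted p = 0.0104), with a log2 fold change of -0.24. Without the 2 libraries with kidney transcripts the log2 fold change of Kdm6a was -0.17, with an adjusted p of 0.153 from fewer libraries. Of 13 tested trithorax and COMPASS genes, which methylate H3K4 and keep genes active, 1 rose, 8 fell and 4 stayed short of the threshold. Men1 (menin) fell 1.76-fold, from 24.2 ± 0.444 to 13.8 ± 0.609 FPKM, and the methyltransferase gene Kmt2d fell 1.65-fold, from 6.76 ± 0.353 to 4.09 ± 0.309 FPKM. The 1 gene of that list called higher, named after its values were seen, was Ash2l, a core COMPASS subunit, at 18.8 ± 0.507 against 14.6 ± 0.360 FPKM.

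**Figure D3:**
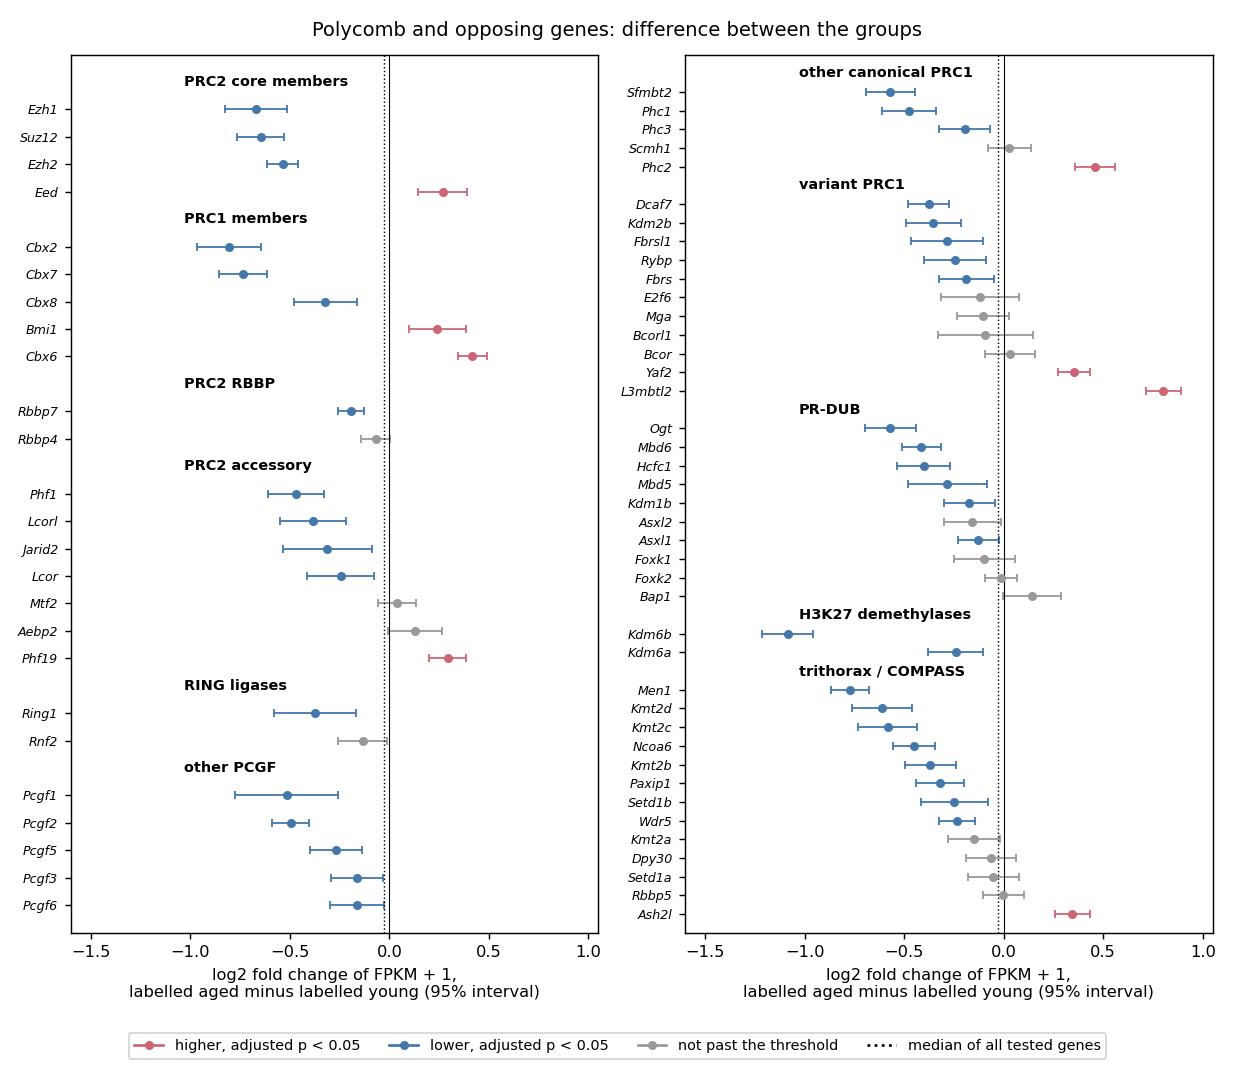
Log2 fold change of FPKM + 1 (horizontal axis, labelled aged minus labelled young, with the unadjusted 95% interval) for each tested gene of the Polycomb lists and of the opposing lists, red where called higher and blue where called lower. On this scale Cbx2 lies at -0.81 and Cbx6 at 0.42, and Kdm6b, an opposing gene, lies at -1.08.

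Ezh2 and Eed are known targets of E2F factors, so genes of cell division and of the E2F and RB families were set beside them. Of 20 cell division genes, 15 rose, 3 fell and 2 stayed short of the threshold, with a median log2 fold change of 0.36. Over all tested genes, 27.7% were called higher and 32.3% lower. Aurka, a mitotic kinase, rose 1.98-fold, and Mcm3, part of the helicase that opens DNA for replication, rose 1.68-fold, from 56.4 ± 1.04 to 94.9 ± 6.21 FPKM. The 3 that fell, named after their values were seen, were Mki67, Aurkb and Ccna2, and Mki67 stood at 54.3 ± 2.07 against 76.0 ± 1.87 FPKM. The 10 E2F and RB genes split into 3 that rose, 3 that fell and 4 short of the threshold. E2f3, an activating E2F, rose 1.90-fold, from 5.66 ± 0.121 to 10.8 ± 0.715 FPKM, and E2f5, a repressive E2F, fell 1.5-fold, from 9.55 ± 0.692 to 6.35 ± 1.19 FPKM (limma adjusted p = 0.00841, log2 fold change -0.53). Without the 2 libraries with kidney transcripts the log2 fold change of E2f5 was -0.42, with an adjusted p of 0.142 from fewer libraries. E2f1 and Rb1 were also higher, and E2f7 and Rbl1 also lower. The call of Rb1 was lost without replicate 2 of the libraries labelled aged or 3 of those labelled young. That of E2f7 was lost with median centring (limma adjusted p = 0.0546). Without the 2 libraries with kidney transcripts the log2 fold change was 0.11 for Rb1, -0.20 for E2f7 and -0.20 for Rbl1. With all libraries these were 0.16, -0.21 and -0.24. The fit without those 2 libraries leaves 1 library labelled young. Only effect sizes are given from it for Rb1, E2f7 and Rbl1, and their calls are not claimed to hold there. Ezh2 and Suz12 fell and Eed rose in libraries where 15 of the 20 cell division genes rose and 3 fell. A link between these Polycomb genes and cell division or E2F factors was not tested.

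**Figure D4:**
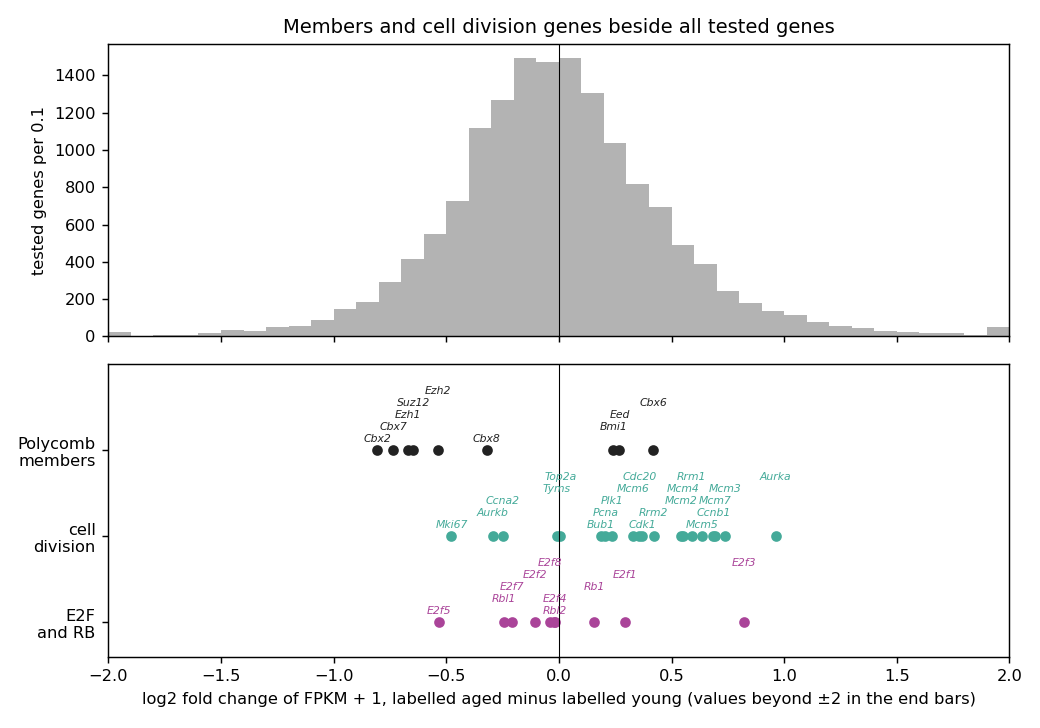
Number of tested genes per 0.1 of log2 fold change (top) and the log2 fold changes of the 9 Polycomb genes, 20 cell division genes and 10 E2F and RB genes on the same axis (bottom), labelled aged minus labelled young. Ezh2 at -0.54 and Suz12 at -0.65 lie left of zero, while the median of the cell division genes is 0.36.

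Genes that Polycomb silences in many cell types were near 0 in both groups. Of 30 such genes, 25 stayed under 0.5 FPKM in every library, 5 were tested, and 1 was called in each direction. Pax3, a transcription factor of neural crest and muscle, fell 1.23-fold, from 4.81 ± 0.434 to 3.90 ± 0.210 FPKM (limma adjusted p = 0.0205), and the heart and endoderm factor Gata4 rose 1.34-fold, from 1.81 ± 0.161 to 2.43 ± 0.352 FPKM (limma adjusted p = 0.0341). Neither call held under all alternatives. Leaving out 1 library at a time, the call of Gata4 was lost without replicate 2 or 3 of either group, with adjusted p of 0.0669 to 0.0993, and that of Pax3 without replicate 1 or 2 of the libraries labelled young or 1 or 3 of those labelled aged, with adjusted p of 0.0529 to 0.0623. Cdkn2a had 11 reads over the 3 libraries labelled young and 1 read over those labelled aged, too few to be tested.

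The genes most like the catalytic subunits were found by Pearson's r of log2(FPKM + 1) over the 6 libraries. For Ezh1 they were Sertad2, Gda and Sh3bp5, with r of 0.9996, 0.9992 and 0.9989, and 222 genes reached 0.99. For Ezh2 they were Dock9, Sgcb and Kremen1, with 578 genes at 0.99 or above. The 6 points fall into 2 groups and the genes share libraries and depth, so r is given as a description.

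All 9 Polycomb genes kept their direction under each of 17 alternative settings, and 7 kept their call under each. Eed and Bmi1 are the exceptions described above. The log2 fold change of Cbx2 ran from -0.88 to -0.74, that of Ezh2 from -0.55 to -0.47 and that of Cbx6 from 0.40 to 0.48.

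**Figure D5:**
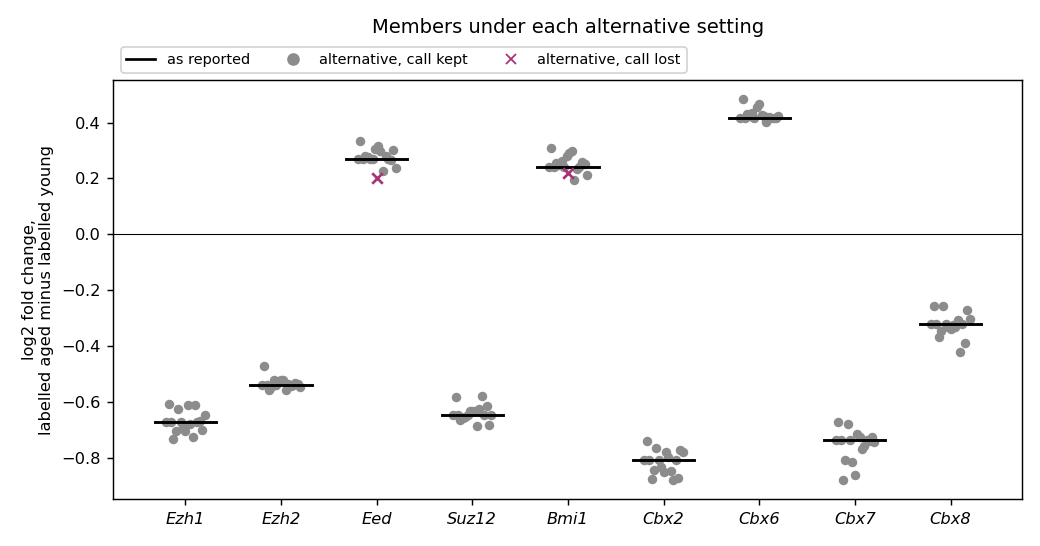
Log2 fold change of each of the 9 Polycomb genes (vertical axis, labelled aged minus labelled young) as reported (black line) and under each of 17 alternative settings (grey points where the call was kept, purple crosses where it was lost). No point crosses zero, and the 2 crosses are Eed at 0.20 and Bmi1 at 0.22 without the 2 libraries with kidney transcripts.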

How the data were processed

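The authors deposited FPKM for 54532 genes in each of 6 libraries. Per the labels' protocols, RNA was extracted with TRIzol and read pairs went through HISAT2 2.0.5 for alignment. The submitters' processing notes name mm10 as the build. The sources used here do not say how reads were counted, or whether by strand. FPKM times gene length gave whole multiples of 1 step for 100% of values above 0 (tolerance 0.01), which gave recovered reads. Chi-square per degree of freedom between libraries of a group was 2.25 to 4.93, over genes with 50 reads or more in that pair. Between libraries of different groups it was 76.8 to 81.6. Each library counted as 1 sample, although the spread within a group may be technical.

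Genes with at least 0.5 FPKM in at least 3 libraries were tested with limma 3.58.1 in R 4.3.3 on log2(FPKM + 1), a scale that understates the change of low genes, with a mean-variance trend and Benjamini-Hochberg adjustment over 15197 genes at 0.05. Fold values are ratios of mean FPKM. Shares of summed FPKM were tested by exact permutation with scipy 1.17.1. The fit was tested on simulated data. The text names the 9 members, up to 2 called genes with the largest change from each list, a few fixed genes such as Rnf2 and Cdkn2a, and the 3 genes most like Ezh1 and Ezh2. The members and lists were chosen with earlier results of these data known. A withheld item is not reported here, and the lists, counts and shares were computed without it.

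Alternatives were pseudocounts of 0.1 and 0.5, no filter on low values or another on a mean of 1 FPKM, centring on medians, quantiles, TPM, no trend, a replicate block and each library left out. Added after seeing the data were voom on the recovered reads and the removal of the 2 libraries that hold kidney transcripts (replicates 1 and 3 labelled young).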

Additional observations from a re-analysis of the deposited data

How the results depend on the processing

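The 9 Polycomb genes stayed at 3 higher and 6 lower under every alternative but the one without the 2 libraries with kidney transcripts (replicates 1 and 3 labelled young), where 1 was higher and the labelled young group held 1 library. The other Polycomb genes called lower, 25 as reported, were 16 with median centring, 13 without the libraries with kidney transcripts, and 16 to 24 when 1 library was left out; the cause was not tested. The replicate numbers did not pair the libraries, with correlations of deviations from the group means of -0.00793 to 0.0192 for equal numbers, and not every library correlated best with its own number. With the replicate block 3 Polycomb genes were higher and 6 lower, the other Polycomb genes gave 4 higher and 19 lower, and Jarid2 and Gata4 lost their calls (limma adjusted p = 0.0567 and 0.0806). Shares taken over fragments in place of FPKM, which weights genes by length, differed between the groups by -8.06 percentage points for Cbx2, 15.4 for Cbx6 and 6.66 for Bmi1, each in the reported direction. Depth limits low genes such as Jarid2, at 69 to 158 reads per library, and Pcgf1, at 70 to 145.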
